A study of Drosophila melanogaster with 6 samples.

Results

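The alpha-esterase genes of Drosophila melanogaster form a cluster of carboxylesterase genes on the right arm of chromosome 3. The 10 named genes of the cluster, alpha-Est1 to alpha-Est10, were all taken by name from the annotation of an oligonucleotide array. The cluster itself was chosen with earlier results of these data known. Of the 10 genes 8 had a probe set in that annotation, 1 each, of 18952 probe sets in all, of which 13647 had a single named gene. The genes alpha-Est1 and alpha-Est4 had no probe set named for them and were not analysed here.

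Carboxylesterases split ester bonds in fats, hormones, pheromones and insecticides, and many of them act on a broad range of substrates. In the blowfly Lucilia cuprina the orthologue of alpha-Est7 is the esterase whose mutations give resistance to organophosphate insecticides, which is why this cluster is studied in insect toxicology. DHR96 is a nuclear receptor of the fly known for its part in the response to foreign chemicals and in the control of sterol and fat metabolism, and its gene is Hr96.

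RNA came from whole, feeding larvae early in the third instar, raised on yeast. The 3 control samples were of the w1118 strain and carried no transgene. The 3 gain samples were of a line made in that same strain, with a full-length DHR96 cDNA behind a heat-shock promoter. Larvae of both groups had been heated to 37.5 °C for 1 h beginning 3 h after the moult into that instar, and were extracted 4 h after the heat. A line with the transgene but without heat was not analysed here, so the induced receptor and any standing difference of the line enter each value together. The labels do not say that samples of a group were separate cultures, so p-values measure only the spread between these samples. Since whole larvae were used, fewer cells of a tissue and less RNA per cell cannot be told apart. Values are log2 of the deposited intensities, and differences are gain minus control on that scale. The induced gene Hr96 lay between 9.47 and 9.82 in control and between 14.64 and 14.73 in gain.

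Control 3 and gain 2 stood apart from the other arrays. Over the 7974 genes and unnamed probe sets tested, the SD of the log2 difference between 2 arrays was 0.204 for controls 1 and 2, but 0.432 and 0.482 for control 3 against them, and 0.31 to 0.37 among gain arrays. The median deviation from the mean array was -0.27 for gain 2 and between -0.0038 and 0.09 for the other arrays. The median difference of all tests was -0.15, so a member's difference is given also relative to that median.

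Several alpha-esterase transcripts were lower in larvae with induced DHR96, by widely different amounts. A probe set entered the test when its log2 value was at least 4 on 3 or more of the 6 arrays, which 7 of the 8 did. Of these 7, alpha-Est8, alpha-Est10 and alpha-Est3 fell (limma, adjusted p under 0.05 over all tests), none rose and 4 did not pass. Of all tests 3.47% were called lower and 0.451% higher, 277 and 36 in number. The members called lower were 42.9% of those tested, and the median difference of the 7 was -0.52, against -0.15 for all tests. Because the cluster was chosen with earlier results of these data known, its shares are described beside those of all tests and were not tested. Of the 7 members 4 had every gain array below every control array, 57.1%, beside 25.2% of all tests, and none had every gain array above every control array, beside 5.49%. A negative difference was found in 5 of 7, or 71.4%, which is close to the 75.0% of all tests. The number of calls among all tests moved with the scaling of the arrays: quantile normalization gave 275 lower and 165 higher, median difference centring 349 and 128, and centring on the median of detected probe sets 247 and 207. Under these 3 scalings the members called lower numbered 3, 3 and 2, and none was called higher. Median centring over all probe sets gave 291 lower and 33 higher, with 2 members among those lower.

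**Figure D1:**
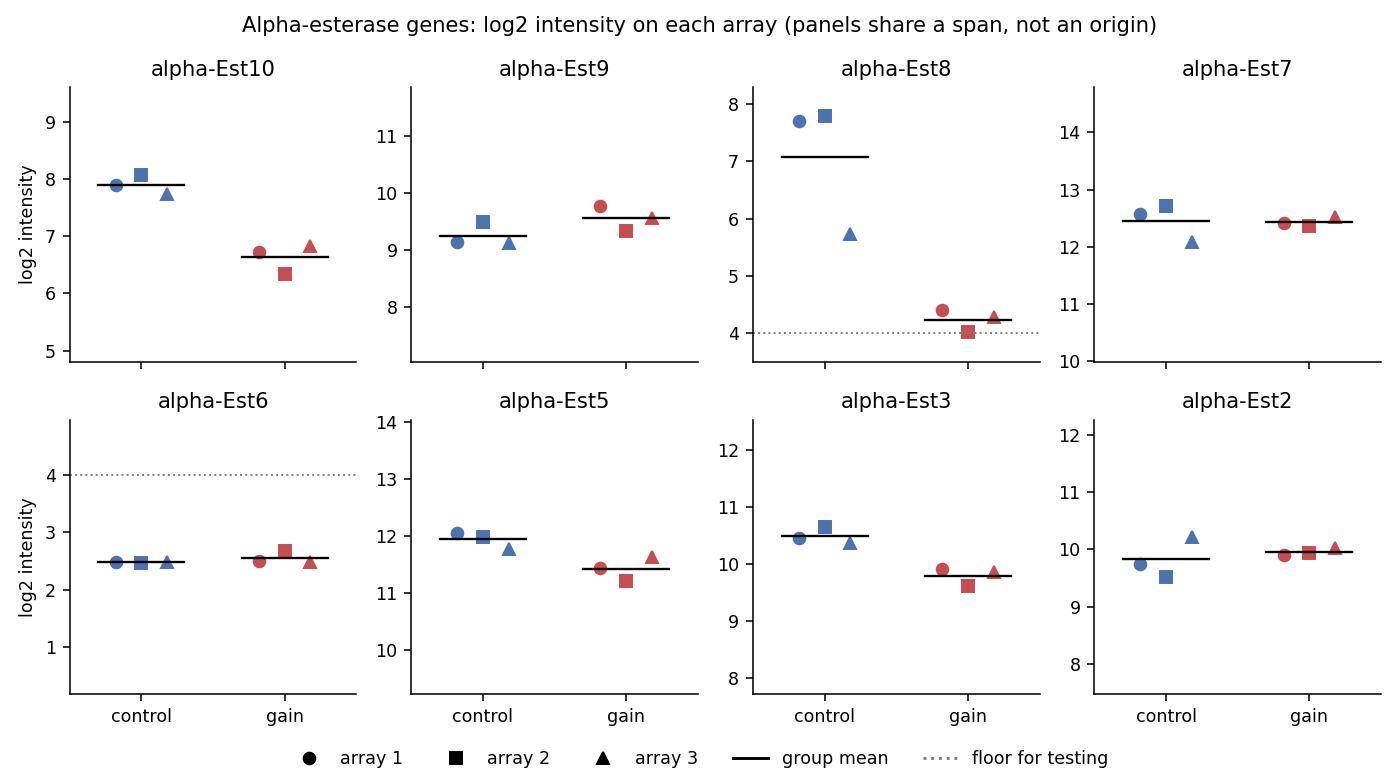
Log2 intensity of the 8 alpha-esterase genes with a probe set, 1 panel per gene in their order along the chromosome, for 3 control (blue) and 3 gain (red) arrays; symbols mark the array number, bars the group mean and the dotted line the floor of 4. Panels have the same span but different origins, so heights are to be compared within a panel only. The groups are apart for alpha-Est10, alpha-Est8, alpha-Est5 and alpha-Est3 and overlap for alpha-Est9, alpha-Est7 and alpha-Est2, while alpha-Est6 lies below the floor on every array.

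The gene alpha-Est8 had the largest difference of the cluster and the 10th most negative of all 7974 tests. The 3 control arrays read 7.71, 7.79 and 5.74 on the log2 scale, and the 3 gain arrays 4.41, 4.01 and 4.28. All gain arrays lay below all control arrays, with a gap of 1.33 between the nearest arrays of the groups, and all gain arrays were close to the floor of 4. The difference was -2.84 ± 0.54 (SE, n = 3 per group, 95% confidence interval -4.14 to -1.54, adjusted p = 0.0433), which is 7.18-fold lower, or 13.9% of the control level. With a pseudocount of 16, which weighs on values this close to the floor, the difference was -2.15 and did not pass (adjusted p = 0.0609). Relative to the median of all tests the difference was -2.70. Control 3 lay 2.01 below the mean of the other 2 controls, and only 0.589% of all tests had a larger SD between controls than the 1.16 of alpha-Est8. The difference was -3.51 without control 3 (adjusted p = 0.0012) and -2.49 without control 2 (adjusted p = 0.141). Measured against control 3 alone, the gain mean was lower by a log2 difference of -1.50. Among fits that leave out 1 array the call held only without control 3.

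The gene alpha-Est10, at the end of the cluster, read 7.90, 8.07 and 7.73 on the control arrays and 6.73, 6.34 and 6.84 on the gain arrays (log2). The groups were 0.90 apart at their nearest arrays, and the controls lay close together, with an SD of 0.17. Its difference was -1.27 ± 0.17 (SE, n = 3 per group, 95% confidence interval -1.67 to -0.87, adjusted p = 0.0146), 2.41-fold lower, or 41.5% of the control level. Relative to all tests the difference was -1.12. The difference ran from -1.37 to -1.12 when each array was left out in turn, and the call was lost without control 1 (adjusted p = 0.0805) or control 2 (adjusted p = 0.0685). In the reference annotation the small gene CG42656, which had no probe set named for it, overlaps alpha-Est10.

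For alpha-Est3 the control values were 10.45, 10.64 and 10.36 and the gain values 9.91, 9.61 and 9.86. The groups were 0.45 apart at their nearest arrays, with an SD of 0.141 in control and 0.161 in gain. The difference of -0.69 ± 0.13 (SE, n = 3 per group, 95% confidence interval -1.01 to -0.38, adjusted p = 0.0426) put gain at 61.9% of control, 1.62-fold lower. Relative to the median of all tests it was -0.54. Its call was lost in 5 of the 6 fits that leave out 1 array, with adjusted p-values up to 0.18, and held at 0.0474 without control 3. Centring on the median of detected probe sets gave a difference of -0.44 (adjusted p = 0.064). An antisense RNA gene, asRNA:CR46128, overlaps alpha-Est3 in the annotation, and had no probe set named for it.

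Next to these stood alpha-Est5, whose groups were also apart but by less. On the log2 scale the control arrays read 12.06, 11.98 and 11.78 and the gain arrays 11.44, 11.21 and 11.62. The nearest arrays of the groups, control 3 and gain 3, were 0.15 apart. The difference of -0.52 ± 0.14 (SE, n = 3 per group, 95% confidence interval -0.86 to -0.17) did not pass (adjusted p = 0.112). Relative to all tests it was -0.37, and it was negative under all 20 other settings, from -0.61 to -0.26. With the groups apart, only settings that rescale the arrays could have changed that sign.

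The other 3 tested genes did not pass, and their groups overlapped. The organophosphate resistance orthologue alpha-Est7 read 12.58, 12.71 and 12.08 on the control arrays and 12.42, 12.36 and 12.51 on the gain arrays. The 3 gain values lay between control 3 and the other controls. The difference of alpha-Est7 was -0.02, with a 95% confidence interval of -0.45 to 0.41 (adjusted p = 0.966). In this fit, without rescaling of the arrays, that bounds a fall at 1.36-fold and a rise at 1.33-fold. Its sign is not settled: relative to all tests it was 0.13, and the difference was 0.12 under quantile normalization, 0.13 under median difference centring and 0.23 with centring on detected probe sets.

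The gene alpha-Est9 lay at 9.15, 9.50 and 9.12 in control and at 9.78, 9.33 and 9.55 in gain. Only control 2 reached into the range of the gain arrays. The difference was 0.30 (95% confidence interval -0.09 to 0.70, adjusted p = 0.35) and 0.45 relative to all tests. It was positive under all 20 other settings, from 0.19 to 0.55. The gene alpha-Est2 lay at 9.75, 9.52 and 10.22 in control and at 9.91, 9.95 and 10.02 in gain. Here control 3 was the highest of the 6 arrays, while the gain arrays were within an SD of 0.0561 of each other. The difference of alpha-Est2 was 0.13 (95% confidence interval -0.31 to 0.57, adjusted p = 0.729), and without control 2 it was -0.02. Relative to all tests it was 0.28. The intervals of alpha-Est8 and alpha-Est10 lay wholly below those of alpha-Est9, alpha-Est7 and alpha-Est2; the differences between genes were not tested.

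The gene alpha-Est6 did not pass the filter. Its log2 values ran from 2.47 to 2.67 on all 6 arrays, below the floor of 4, so only a bound is known and no fold is given.

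Within each group the lowest values of the members fell mostly on the same array. Control 3 was the lowest control for 6 of the 7 tested members, all but alpha-Est2, and for 38.8% of all tests. Gain 2 was the lowest gain array for 6 of the 7, all but alpha-Est2, where gain 1 was lowest, and for 79.7% of all tests. The SD between controls was 0.141 to 0.353 for the members other than alpha-Est8, against a median of 0.135 for all tests.

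The genes called lower were not next to each other. In the order of the Release 6 plus ISO1 MT annotation, used here only for neighbours and overlaps, the cluster runs alpha-Est10, alpha-Est9, alpha-Est8, alpha-Est7, alpha-Est6, alpha-Est5, alpha-Est4, alpha-Est3, alpha-Est2 and alpha-Est1. Thus alpha-Est9, with a positive difference, lies between the 2 genes with the largest negative ones, and alpha-Est3 is separated from them by alpha-Est7, alpha-Est6, alpha-Est5 and alpha-Est4. Of the genes of other kinds interspersed in the cluster, 3 had a probe set, Mics1, Rtnl2 and alphaTub84D, and all 3 lay below the floor on every array. Mics1 overlaps alpha-Est9. On the flank beyond alpha-Est10 the nearest gene with a tested probe set was CG1142, with a difference of 0.21 (adjusted p = 0.306). On the other flank the neuroligin genes Nlg3 and Nlg1, which encode cell adhesion proteins with an esterase-like domain, lay below the floor. CG1142 was the only neighbour tested. It was not called, though each of its gain arrays lay above each control array, as in 5.49% of all tests.

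**Figure D2:**
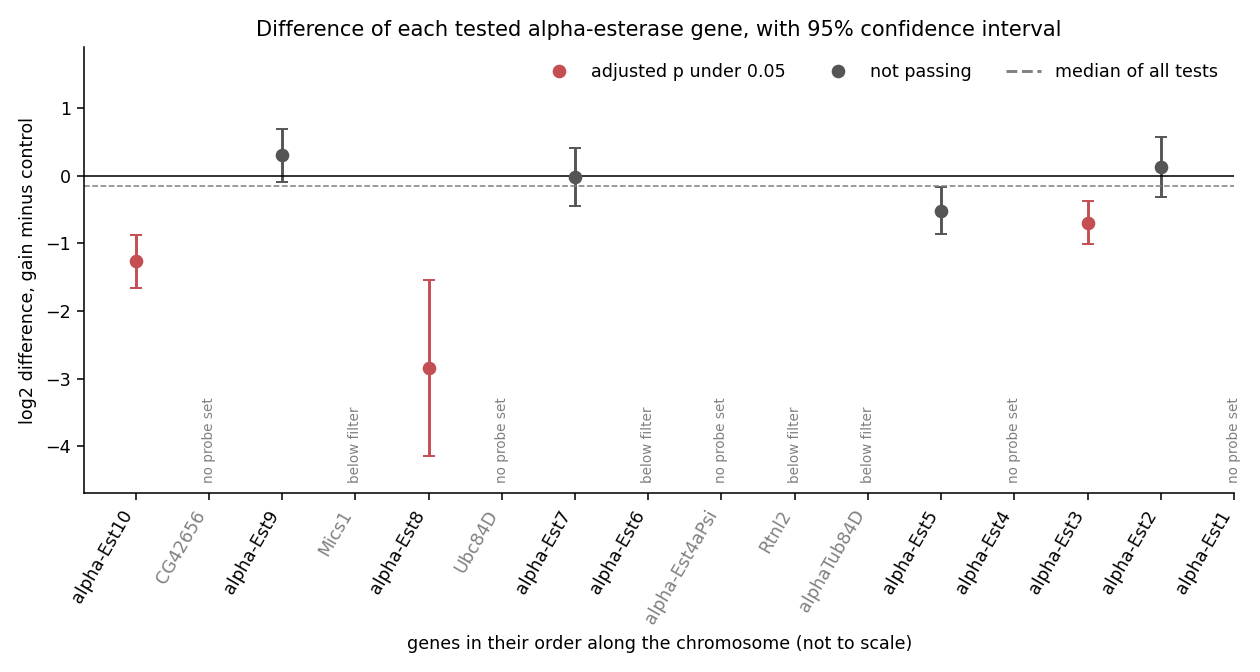
Log2 difference, gain minus control, of each tested gene of the cluster with its 95% confidence interval, in the order of the genes along the chromosome and not to scale; red marks an adjusted p under 0.05, grey names are genes of other kinds, and the dashed line is the median of all tests, -0.15. Of the 3 genes in red, alpha-Est10 and alpha-Est8 stand on either side of alpha-Est9, at 0.30, and alpha-Est3 lies further along.

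The rest of the carboxylesterase fold family was set beside the cluster as a list of 22 genes taken by name. This list too was chosen with earlier results of these data known. It holds active esterases and also adhesion proteins that have lost the catalytic site. Of the 22 genes 21 had a probe set and 10 passed the filter. CG10175 and CG6414, both predicted carboxylesterases, fell, none rose, and 8 did not pass. The share called lower was 20.0%, against 3.47% of all tests, and the median difference of the 10 was -0.13. Under the 3 scalings named above the count was 1 of 10, CG6414, and with median centring over all probe sets it was 2. It was 0 in 4 of the 6 fits that leave out 1 array. The groups were apart, with gain below control, for 3 of the 10, CG10175, CG6414 and CG3841.

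For CG10175 the control arrays read 6.79, 6.13 and 6.05 and the gain arrays 4.50, 5.22 and 4.17 (log2). Gain 2 was the highest of its gain arrays, unlike most members of the cluster. Its difference was -1.70 ± 0.32 (SE, n = 3 per group, adjusted p = 0.0423), 3.24-fold lower. The call of CG10175 was lost under quantile normalization (adjusted p = 0.0851), median difference centring (adjusted p = 0.0661) and centring on detected probe sets (adjusted p = 0.0753). It held with median centring over all probe sets (adjusted p = 0.0084). For CG6414 the control arrays read 5.59, 5.78 and 4.998 and the gain arrays 4.36, 4.10 and 4.19. As with alpha-Est8, control 3 was the lowest control and the gain arrays lay near the floor. Its difference was -1.24 ± 0.21 (SE, n = 3 per group, adjusted p = 0.0336), 2.37-fold lower. Both calls were lost without control 1, control 2, gain 1 or gain 3, and that of CG6414 also without gain 2, with adjusted p-values up to 0.151.

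The next largest differences of that list did not pass. CG3841, also a predicted carboxylesterase, had a difference of -0.47 (adjusted p = 0.193). Jhe, the esterase that breaks down juvenile hormone, had a difference of -0.42 (adjusted p = 0.679), with control 3 at 6.55 and the other 5 arrays between 4.57 and 4.89. The remaining 6 tested genes had differences from -0.14 to 0.15 and no adjusted p under 0.716.

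**Figure D3:**
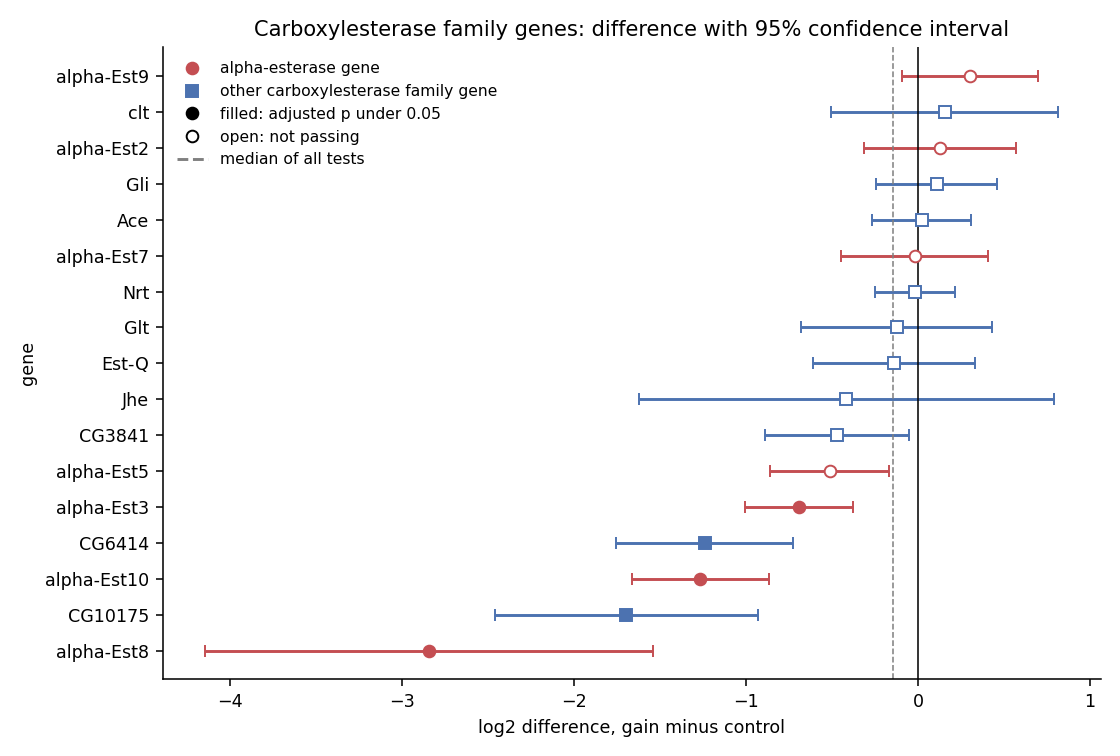
Log2 difference, gain minus control, with its 95% confidence interval for the 7 tested alpha-esterase genes (red circles) and the 10 tested genes of the rest of the family (blue squares); filled symbols have an adjusted p under 0.05 and the dashed line is the median of all tests, -0.15. The 5 filled symbols are alpha-Est8, CG10175, alpha-Est10, CG6414 and alpha-Est3, the lowest 5 of the 17 genes.

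Markers of 3 tissues were set beside the cluster, and none of them passed the test. Midgut, Malpighian tubule and fat body are tissues in which esterases of this kind are made. Of 8 midgut, 6 tubule and 10 fat body markers, 5, 5 and 7 had a probe set, and all of these passed the filter, so RNA of the 3 tissues was present. The summed tubule intensity was 1972 to 2008 in control and 1314 to 1700 in gain, the midgut sum 77160 to 81126 and 67921 to 75872, and the fat body sum 69676 to 91039 and 59894 to 66785. Each sum, which a few bright probe sets dominate, was lower in every gain array than in every control array. The sums were not adjusted for the median difference of all tests, -0.15. Of the 17 markers themselves 4 had every gain array below every control array, 23.5%, beside 25.2% of all tests, and 13 had a negative difference and 4 a positive one. Single markers differed by -0.67 to 0.13 for tubule, by -0.71 to -0.05 for midgut and by -0.79 to 0.45 for fat body. The median differences of the lists were -0.27 for tubule, -0.22 for midgut and -0.08 for fat body, the last above the -0.15 of all tests. Their part in the lower esterase values was not tested.

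The calls rest on few arrays. With controls 1 and 2, the closest pair, averaged and counted as 1 sample, none of the 3 members passed, with adjusted p-values of 0.0752 for alpha-Est10, 0.152 for alpha-Est8 and 0.164 for alpha-Est3. Over all tests that setting called 40 lower, against 277 as reported. The direction of all 3 members, and of alpha-Est5, was the same under each setting that gave a value. As the groups of these genes were apart, only settings that rescale the arrays could have changed it. The plot of adjusted p-values by setting shows alpha-Est10 below 0.05 in 16 of 20 other settings, alpha-Est8 in 11 of 19 and alpha-Est3 in 10 of 20. These settings are not separate checks. Each gene has 1 probe set, so settings that average or keep all probe sets of a gene left its values unchanged.

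**Figure D4:**
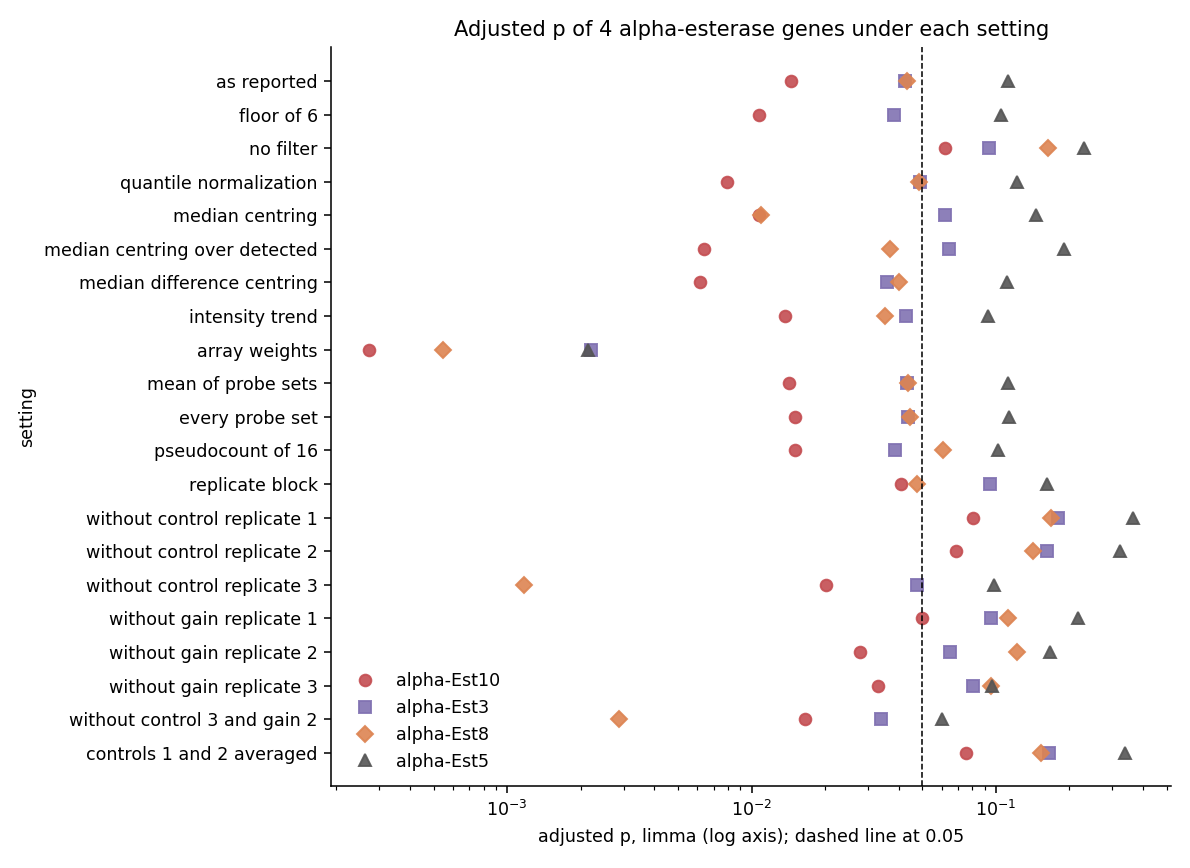
Adjusted p (limma, log axis) of alpha-Est10, alpha-Est3, alpha-Est8 and alpha-Est5 as reported and under 20 other settings, 1 row each; the dashed line marks 0.05. With a floor of 6 alpha-Est8 was not tested and has no point. Points for alpha-Est3 and alpha-Est8 lie close to the line as reported, at 0.0426 and 0.0433, and right of it when control 1 or control 2 is left out.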

How the data were processed

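The authors deposited linear intensities, 1 for each probe set on each array, made with GCRMA (background correction, normalization and summary of probes), per the submitters' processing notes; the GCRMA version, the scanner and the genome build were not given in the sources used here. Intensities ran from 2.54 to 86989, and 44.4% to 44.8% of probe sets reached a log2 value of 4 on each array. The number of arrays limits the precision.

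Genes were named through the platform annotation, with symbols updated by gene ID (13544 of 13647 matched the Release 6 plus ISO1 MT table). Log2 values, with no pseudocount, were tested when at least 4 on 3 or more arrays, control probe sets left out, with the brightest probe set per gene. Gain and control were compared over all 7974 tests with limma 3.58.1 in R 4.3.3 (lmFit, eBayes, no covariate) and Benjamini-Hochberg adjustment; every adjusted p and confidence interval is limma's. The procedure was tested on simulated data with independent noise and no shifts of whole arrays. That test does not show how the calls bear the array differences seen here. Tables and figures used Python 3.11.15, pandas 2.3.3, NumPy 2.4.6 and Matplotlib 3.10.9.

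The members, lists, tests and settings were chosen with earlier results of these data known. Named are all members, of the family list the called genes and the 4 largest differences, called neighbours, and Hr96; CG1142, the tested neighbour, and a few undetected neighbours were named after their values were seen. Of 20 other settings, 2 were added after seeing the data: controls 1 and 2 averaged, and centring on the median of detected probe sets.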

Additional observations from a re-analysis of the deposited data

How the results depend on the processing

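Of 20 other settings, the count of 3 alpha-esterase genes called lower stayed within 1.5 times in 13. It was 0 with no filter and 0 with controls 1 and 2 averaged, and 0 to 3 with each array left out: 0 without control 1 or control 2, 1 (alpha-Est10) without each gain array, 3 without control 3. Calls lower over all tests, 277 as reported, also moved, to 27 without control 1 and 45 without control 2. They numbered 116, 187 and 220 without gain 1, gain 2 and gain 3, and 374 without control 3. No member was called higher except 1, alpha-Est9, with array weights, which also called alpha-Est5 lower and where the weight estimate stopped before its tolerance (weights 0.137 to 7.44) and all tests gave 1928 lower and 638 higher. The median difference of the members, -0.52, was -0.27 with a floor of 6, which left out alpha-Est8, and -0.26 with centring on detected probe sets; leaving out each array it ran from -0.61 to -0.41.

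The difference of alpha-Est7 was positive with controls 1 and 2 averaged (0.0742), centring on detected probe sets (0.23), median difference centring (0.13) and quantile normalization (0.12), and ran from -0.21 to 0.11 with each array left out; that of alpha-Est2 ran from -0.0247 to 0.32. A pseudocount of 16 ended the call of alpha-Est8 (-2.15, adjusted p = 0.0609) and median centring over all probe sets that of alpha-Est3 (adjusted p = 0.0622). The count of 2 other family genes called lower was 0 with no filter and with controls 1 and 2 averaged, 1 with a floor of 6, quantile normalization, centring on detected probe sets, median difference centring and the replicate block (where CG10175 had an adjusted p of 0.0505), and 0 to 2 with each array left out; array weights gave 1 higher. All tests gave 85 lower and 17 higher with no filter, 40 and 13 with controls 1 and 2 averaged, 631 and 129 without control 3 and gain 2, 207 higher with centring on detected probe sets, 128 with median difference centring and 165 with quantile normalization, and 27 to 374 lower and 12 to 51 higher with each array left out. The causes were not tested.

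The labels number the arrays 1 to 3 in each group but do not say that equal numbers are pairs, so the samples were not paired. The deviations of same-numbered arrays correlated at 0.21, 0.03 and 0.37. Those of differently numbered arrays ran from -0.36 (control 2 and gain 3) to 0.34 (control 2 and gain 1). These values do not settle whether the numbers pair the samples. With the replicate number as a block, 2 alpha-esterase genes were called lower, alpha-Est8 (adjusted p = 0.0475) and alpha-Est10 (adjusted p = 0.0409), alpha-Est3 was not (adjusted p = 0.0944), and all tests gave 217 lower and 41 higher. Groups of 3 are too small for the check for single outlying arrays.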
